A study of Mus musculus with 160 samples.

Results

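The 35 genes described here encode parts of the autophagy and lysosome pathway. They were chosen by name, as a fixed list of gene symbols, and all 35 were found by Ensembl identifier among the 43432 genes of the deposited tables. For this description they were grouped by role into 5 lysosomal membrane and export proteins, 8 cathepsins, 5 other hydrolases or their activators, 2 transcription factors, 5 ATG8 proteins, 4 autophagy receptors and 6 initiation or core autophagy proteins. RNA was sequenced from 32 mice, each of which gave a liver, heart, tibialis muscle, cortex and striatum library. The animals were Q175 mice, which are labelled heterozygous and model Huntington's disease through an expanded CAG repeat in the huntingtin gene, or wild-type (WT) mice, all on C57BL/6J. Q175 mice received vehicle alone or CHDI-00390576, an inhibitor of class IIa histone deacetylases, at 30 or 100 mg/kg. WT mice received vehicle alone, so no drug effect in WT mice was measured. Dosing was oral, was given b.i.d. per the labels, and ran from 4 weeks to 6 months of age, when the tissues were taken. Every group of 1 tissue and 1 arm held 8 libraries, 4 from females and 4 from males.

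Autophagy delivers cytoplasmic material to lysosomes. A double membrane forms under the control of the ULK1 and BECN1 complexes, ATG8 proteins are joined to the membrane lipid, receptors such as SQSTM1 tether cargo to them, and the closed vesicle fuses with a lysosome, where cathepsins and glycosidases break its contents down. TFEB and TFE3 are transcription factors that drive many lysosomal genes through short E-box-type sites, and the pathway is one route by which cells clear mutant huntingtin.

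The libraries held between 29.8 M and 44.9 M estimated counts, where M stands for mega, and all 35 genes passed the filter on low counts in each tissue. In 8 libraries the summed markers of another tissue came to more than 1% of their level in that tissue. The largest values were 30.7% for muscle markers in 1 cortex library of the 30 mg/kg arm and 12.1% for brain markers in 2 tibialis libraries, of the 100 mg/kg and WT arms. In 3 livers the excess over 1% was carried by 1 gene of the brain list, Slc1a2, which liver also expresses. In 7 libraries transcripts of the other sex exceeded 1%. In 3 striata labelled Q175, Wt1, which is higher in the other Q175 striata, was in the range of the WT striata, and without them 0 members were called in any striatal comparison, as with them. The labels do not say how animals were assigned to sequencing runs. The libraries are bulk tissue, so fewer cells of a type and less RNA per cell cannot be told apart.

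The plot of WT levels shows how the pathway was spread over the tissues. Levels are compared here as FPKM, which is scaled by transcript length and library total, and are described as the lowest, median and highest of the 8 WT libraries. By WT median, liver had the highest level of the 5 tissues for 17 of the 35 genes, and tibialis had the lowest for 17. Cathepsins made up 34.2% of the summed FPKM of the 35 genes in liver, 26.6% in heart, 21.1% in tibialis, 17.5% in striatum and 16.5% in cortex. ATG8 genes made up 18.5% in liver, 26.9% in heart, 22.3% in tibialis, 32.7% in striatum and 30.7% in cortex.

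**Figure D1:**
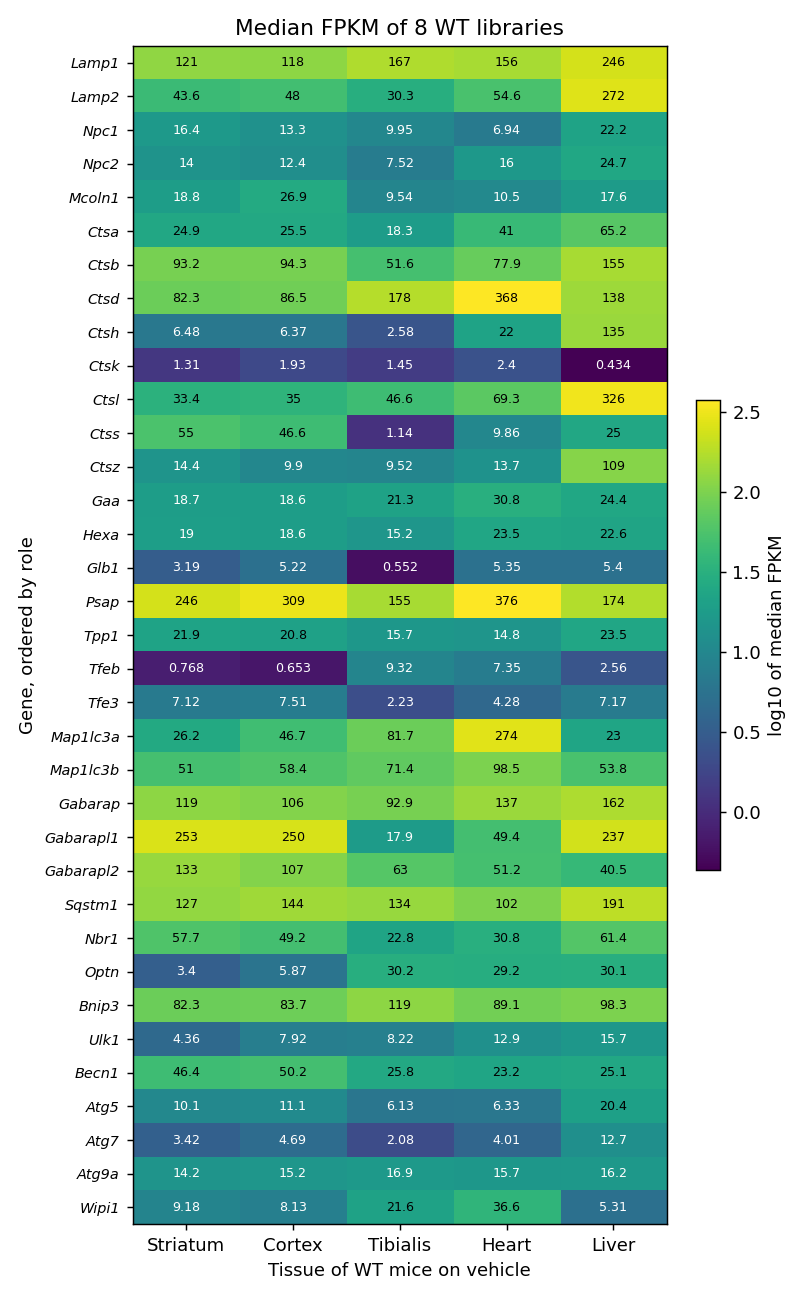
Median FPKM of each of the 35 genes (rows, grouped by role) in the 8 WT libraries of each tissue (columns), on a log10 colour scale with the value printed in each cell. Liver holds the highest value of 17 genes and tibialis the lowest of 17, and Tfeb or Ctsk has the lowest value of every column but tibialis.

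Among lysosomal membrane proteins, Lamp2, which encodes the receptor of chaperone-mediated autophagy and a major membrane glycoprotein, stood at 251, 272 and 287 FPKM in WT liver (lowest, median, highest) and at no more than 59.7 FPKM in any WT library of the other tissues. Its partner Lamp1 varied less, with WT medians between 118 FPKM in cortex and 246 FPKM in liver. Npc1 and Npc2, which together export cholesterol from the lysosome, and Mcoln1, its calcium channel, had WT medians between 6.94 and 26.9 FPKM in every tissue. Lamp1 also stood apart in liver, at 226, 246 and 283 FPKM against 142, 167 and 186 FPKM in WT tibialis, its next tissue. Between highest and lowest tissue Lamp2 spanned 8.96-fold, and the others of its group 2.09-fold to 3.29-fold.

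The cathepsins are lysosomal proteases, and their tissue patterns differed from one another. Ctsl, a broad cysteine protease, stood at 255, 326 and 482 FPKM in WT liver and at 28.7, 33.4 and 38.4 FPKM in WT striatum. Ctsd, the main aspartic protease, was highest in heart, at 341, 368 and 406 FPKM. Ctss, a cysteine protease of macrophages and microglia, stood at 49.8, 55 and 60.9 FPKM in WT striatum and at 0.708, 1.14 and 10.8 FPKM in WT tibialis. The highest of those tibialis values stood far above the other libraries' median, and the heart and tibialis ranges of Ctss overlapped. WT tibialis female 3 and male 4, with brain markers at 12.1% and 6.5%, are among these libraries. The part of brain RNA in the Ctss values was not tested. Ctsh, an aminopeptidase, had a median of 135 FPKM in liver and 2.58 FPKM in tibialis, which was the widest spread of the 35 genes at 52.5-fold. Ctsk, the protease of bone-resorbing cells, stayed between 0.434 and 2.4 FPKM by WT median. Ctsb, Ctsz and Ctsa, which also protects beta-galactosidase, all had their highest median in liver, at 155, 109 and 65.2 FPKM.

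Psap, the precursor of the saposins that activate sphingolipid hydrolases, was the most abundant hydrolase-group gene in every tissue, with WT medians of 376 FPKM in heart, 309 in cortex, 246 in striatum, 174 in liver and 155 in tibialis. The enzymes themselves were lower. Gaa, which breaks down lysosomal glycogen, ranged by WT median from 18.6 FPKM in cortex to 30.8 FPKM in heart, Hexa, a hexosaminidase, from 15.2 to 23.5 FPKM, and Tpp1, a tripeptidyl peptidase, from 14.8 to 23.5 FPKM. Glb1, the lysosomal beta-galactosidase, stood at 0.552 FPKM in tibialis and at 5.4 FPKM in liver.

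The ATG8 genes divided by tissue. Map1lc3a, an LC3 gene, stood at 251, 274 and 309 FPKM in WT heart and at 18.1, 23 and 29.7 FPKM in WT liver. Gabarapl1, of the GABARAP branch, was high in both brain regions and in liver, with medians of 253 FPKM in striatum, 249.9 in cortex and 237 in liver, against 17.9 in tibialis. The other members Map1lc3b, Gabarap and Gabarapl2 varied less, by 1.93-fold, 1.75-fold and 3.29-fold between their highest and lowest tissue. Both transcription factor genes were of low abundance. Tfeb had medians of 9.32 FPKM in tibialis and 0.653 FPKM in cortex, whereas Tfe3 had 2.23 FPKM in tibialis and 7.51 FPKM in cortex.

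Of the receptors, Sqstm1, which binds ubiquitinated cargo, was abundant in all 5 tissues, with WT medians of 102 to 191 FPKM, and so was the mitophagy receptor Bnip3, at 82.3 to 119 FPKM. Optn, another ubiquitin-binding receptor, stood at 3.4 FPKM in striatum and 30.2 FPKM in tibialis, and Nbr1, a relative of Sqstm1, at 22.8 FPKM in tibialis and 61.4 FPKM in liver. In the initiation and core group the lipid scramblase gene Atg9a was the most even of the 35 genes, with a 1.19-fold span between tissues. The kinase gene Ulk1, the lipid kinase subunit gene Becn1, and Atg5 and Atg7, whose products join ATG8 proteins to lipid, had WT medians between 2.08 and 50.2 FPKM. Wipi1, whose product binds the forming membrane, stood at 36.6 FPKM in heart and 5.31 FPKM in liver.

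These tissue differences were tested on the counts of WT mice, with the animal as a block (edgeR's quasi-likelihood test, Benjamini-Hochberg adjustment over all genes tested, threshold 0.05). Between WT liver and WT heart, 23 members were higher in liver and 7 lower, where 41.1% of all genes were higher and 41.3% lower. Ctsz had CPM values (counts scaled to the library total) of 166, 175.3 and 249 in liver and 15.5, 17.9 and 22 in heart, a 10.4-fold difference (adjusted p = 1.93e-10). Map1lc3a had 17.1, 22.5 and 31.5 CPM in liver against 183, 212 and 269 CPM in heart (adjusted p = 2.14e-10). All livers lay above the heart range for Ctsz and below it for Map1lc3a. Ctsh and Gabarapl1 were also higher in liver, with log2 differences of 2.95 ± 0.14 (SE) and 2.59 ± 0.09, and Wipi1 and Ctsk lower, with -2.66 ± 0.12 and -2.16 ± 0.16 (-1.25 for Ctsk on log2(FPKM + 1)).

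Between WT heart and WT tibialis, 14 members were higher in heart and 10 lower, against 38.9% and 32.5% of all genes. The largest differences were those of Glb1, with a log2 difference of 2.97 ± 0.27 (SE), Ctsh with 2.54 ± 0.11 and Ctss with 2.07 ± 0.36 on the higher side, and Npc1 with -1 ± 0.15, Bnip3 with -0.87 ± 0.19 and Gabarapl2 with -0.81 ± 0.11 on the lower. On log2(FPKM + 1) these last 3 were -0.45, -0.359 and -0.345, and 22 members were higher and 4 lower. The median of all genes was 0.295 on that scale and 0.12 on the counts. The share of all genes called on that scale is not given, so its member counts are a description only. WT tibialis female 3 and male 4, over 1% of brain markers, are in this comparison. Ctss was called in each of 6 alternatives, with log2 differences of 1.54 to 2.55. Glb1 was near the floor in WT tibialis, at 0.506, 1.53 and 2.78 CPM, against 9.49, 10.7 and 11.8 CPM in WT heart. Between WT striatum and WT cortex, 7 members were higher in striatum and 8 lower, against 23.1% and 24.0% of all genes. Ulk1 had 18.3, 23.3 and 30 CPM in striatum and 31.6, 40.1 and 65.2 CPM in cortex, a log2 difference of -0.82 ± 0.07 (adjusted p = 2.35e-06), and the ranges did not overlap. Optn was lower in striatum as well, by a log2 difference of -0.72 ± 0.09, and Ctsz, Npc1 and Nbr1 were higher, by 0.46 ± 0.11, 0.39 ± 0.06 and 0.39 ± 0.06. Ctsz was not called without the animal block (adjusted p = 0.117), Nbr1 had 0.244 on log2(FPKM + 1), and on that scale 5 members were higher and 11 lower. This count too is given without the share of all genes on that scale. The comparisons of WT tissues were not repeated with the GC and length slopes of the libraries, which are described below. WT libraries had GC slopes from -0.497 to 0.794 in tibialis, -0.373 to 0.296 in striatum and -0.484 to 0.689 in cortex. Their part in these tissue differences was not tested.

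The effect of the inhibitor was tested in each tissue over all 32 libraries, with arm and sex in the model. The liver at 100 mg/kg was the only tissue and dose in which members passed the test against Q175 vehicle. Ctsd, Psap, Gaa and Map1lc3a rose and Nbr1 fell, so that 4 of the 35 members rose and 1 fell, where 4.11% of all genes rose and 2.74% fell. The shares of the list were 11.4% and 2.86%. With DESeq2 they were 11.4% and 8.57%, so more members fell there, and its shares of all genes are not given. The median log2 fold change of the members was -0.04 and that of all genes tested -0.02.

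Ctsd was at 334, 366 and 399.9 CPM (lowest, median, highest) in livers of the 100 mg/kg arm, against 284, 304 and 324 CPM in Q175 vehicle livers. All 8 dosed livers were above the highest vehicle liver. The log2 fold change was 0.265 ± 0.05 (SE), a 1.2-fold rise (edgeR adjusted p = 0.0013). Gaa was at 88.8, 97.8 and 112 CPM at 100 mg/kg, against 72.8, 86.2 and 93.7 CPM in vehicle livers, with 6 of 8 dosed livers above every vehicle liver (log2 fold change 0.21 ± 0.06, adjusted p = 0.0374). Psap was at 477, 508 and 596 CPM at 100 mg/kg, against 421, 466 and 515 CPM in vehicle livers, with 4 of 8 dosed livers above the vehicle range (log2 fold change 0.18 ± 0.05, adjusted p = 0.0196). For both genes the ranges overlapped, and all 8 dosed livers were above the vehicle median.

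Map1lc3a, the LC3 gene that was lowest in liver of the 5 tissues, was at 20, 26.5 and 30.5 CPM at 100 mg/kg, against 13.2, 18.5 and 25.2 CPM in vehicle livers. Here 5 of 8 dosed livers were above the vehicle range, and the log2 fold change was 0.43 ± 0.12 (adjusted p = 0.0252). Females had 28.6, 23, 30.5 and 20 CPM at 100 mg/kg against 17.1, 14.4, 13.2 and 16 CPM with vehicle, without overlap. Males had 25.7, 27.8, 27.4 and 20.5 CPM against 22.1, 20, 25.2 and 24.7 CPM, with overlap. Whether the dose effect differed between the sexes was not tested. Nbr1, the receptor, moved the other way. It was at 172, 193 and 212 CPM at 100 mg/kg, against 217, 239 and 254 CPM in vehicle livers, and the ranges did not overlap (log2 fold change -0.305 ± 0.073, adjusted p = 0.01). Among the 35 members, Ctsd and Nbr1 were the 2 with no overlap between these groups. The share of all genes without overlap is not given, so this describes the 2 genes and not the list.

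**Figure D2:**
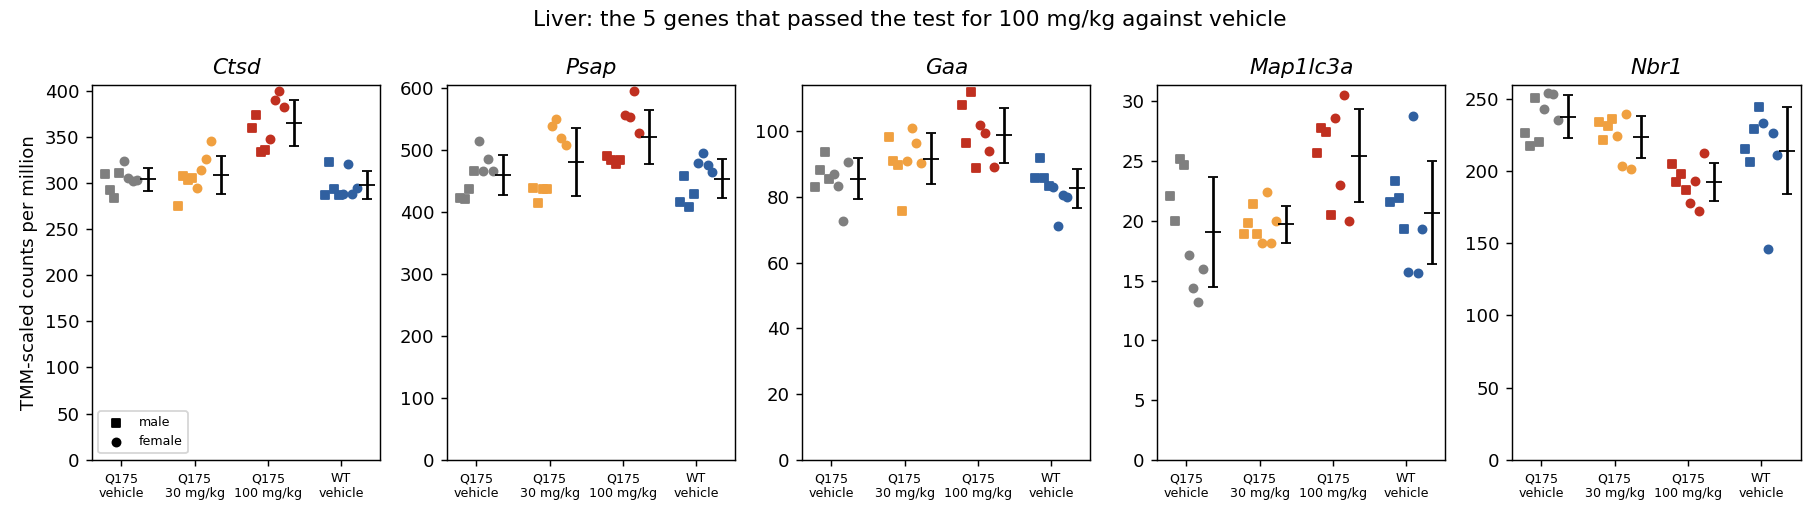
TMM-scaled CPM of the 5 members called in liver at 100 mg/kg, per library (points, 4 females and 4 males in each arm) and group mean with its SD (bars), for Q175 mice given vehicle, 30 mg/kg or 100 mg/kg and for WT mice given vehicle. The 8 livers at 100 mg/kg lie above all vehicle livers for Ctsd and below all vehicle livers for Nbr1, and overlap with them for Gaa, Psap and Map1lc3a.

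These calls differed in how far they rested on single libraries. With each of the 16 livers of both arms left out in turn, an alternative added after the data were seen, Ctsd, Psap and Nbr1 passed every time. Gaa lost its call without the 100 mg/kg females 1 or 2 or males 1 or 3, or without the vehicle females 2 or 3 or males 1 or 4, with log2 fold changes of 0.18 to 0.21 and adjusted p of 0.0531 to 0.0933 in those fits. Map1lc3a lost its call without the 100 mg/kg females 1 or 3 or the vehicle females 2, 3 or 4, with log2 fold changes of 0.37 to 0.41 and adjusted p of 0.0591 to 0.0626. Without the filter on low counts Psap and Gaa lost their calls (adjusted p = 0.0734 and 0.0801), and Gaa also lost it on FPKM (adjusted p = 0.0622). Without the 3 livers over 1% of the brain list, Psap had 0.17 (adjusted p = 0.0519) and Map1lc3a 0.39 (adjusted p = 0.0671), and Ctsd, Gaa and Nbr1 kept their calls. Summed hepatocyte markers were lower at 100 mg/kg, at 93965, 100795 and 109236 CPM, against 99210, 126935 and 143177 CPM in vehicle livers. Of the 10 hepatocyte markers 3 fell, namely Hpx (log2 fold change -0.93 ± 0.21, adjusted p = 0.00702), Fgb and Serpina1c, which all encode secreted plasma proteins. None of the 16 macrophage markers was called, and their sum was 182, 455 and 628 CPM at 100 mg/kg against 196, 480.1 and 754 CPM in vehicle livers. What part these shifts have in the members' values was not tested.

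The 30 members that were not called at 100 mg/kg covered every role. All 5 lysosomal membrane and export genes had log2 fold changes just below 0, from -0.19 for Npc1 to -0.04 for Lamp2, and none was called. The 7 cathepsins other than Ctsd had values from -0.31 (Ctss) to -0.01 (Ctsz). Ulk1 stood at 46.4, 67.4 and 94.8 CPM at 100 mg/kg against 73.3, 86.6 and 95.4 CPM in vehicle livers, with a log2 fold change of -0.37 ± 0.12 that missed the threshold (adjusted p = 0.0696). Atg7 had 0.25 ± 0.10 (adjusted p = 0.112). Tfeb and Tfe3 had 0.05 ± 0.10 and -0.02 ± 0.06. Hydrolases, ATG8 genes and core genes thus each had members on both sides of 0.

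The lower dose gave no liver call. At 30 mg/kg against vehicle, 0 of 35 members were called by edgeR or DESeq2 and 0 had an unadjusted p under 0.05, where 0% of all genes were called. The medians of the 5 members at 30 mg/kg were 306 CPM for Ctsd, 90.9 for Gaa, 474 for Psap, 19.4 for Map1lc3a and 228 for Nbr1. They stood between the vehicle and 100 mg/kg medians for each of the 5 genes. The vehicle medians were 304, 86.2, 466, 18.5 and 239 CPM in the same order. Because the 5 genes were picked by their difference at 100 mg/kg, this order is no test of an effect at 30 mg/kg. Between the 2 doses, Ctsd was higher at 100 mg/kg by a log2 difference of 0.24 ± 0.05 (adjusted p = 0.0174), the only member called, where 0.627% of all genes were called. The difference was as large without the livers over 1% of the brain list (0.253, adjusted p = 0.0615) and without the filter on low counts (0.25, adjusted p = 0.0599), where it was not called.

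Against WT vehicle, the livers at 100 mg/kg had 3 members higher and 2 lower, where 4.29% of all genes were higher and 2.92% lower. Ctsd, at 287, 291 and 323 CPM in WT livers, was again higher without overlap (log2 fold change 0.29 ± 0.05, adjusted p = 0.000377), and Gaa and Psap were higher by 0.26 ± 0.06 and 0.20 ± 0.05. Tpp1 was at 68.6, 75.7 and 82.1 CPM at 100 mg/kg against 70.9, 84.4 and 106 CPM in WT livers (-0.20 ± 0.06, adjusted p = 0.0472), and Becn1 was lower as well (-0.17 ± 0.04, adjusted p = 0.00451). On FPKM neither was called, with -0.166 for Tpp1 (adjusted p = 0.291) and -0.115 for Becn1 (adjusted p = 0.296), and Tpp1 also lost its call without the filter (adjusted p = 0.122), with the replicate block (adjusted p = 0.0899), without the livers over 1% (adjusted p = 0.056), with the form of the column name (adjusted p = 0.0521) and with the slopes described below (adjusted p = 0.0845). This comparison shares the 100 mg/kg livers with the one above. At 30 mg/kg against WT vehicle 0 members were called and 3 had an unadjusted p under 0.05, where 0.0533% of all genes were called, and Q175 vehicle against WT vehicle gave 0 calls and 2 such members (Tfeb, with -0.22 ± 0.10, and Nbr1), where 0.00667% of all genes were called. DESeq2 called no member in either of these comparisons. For both, the share of all genes at an unadjusted p under 0.05 is not given.

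Whether the 100 mg/kg effect in liver differed from that in the other tissues was tested on differences within animals, with limma, in a comparison added after the data were seen. Against striatum, the effect on Map1lc3a was higher in liver by 1.09 ± 0.30 (log2, adjusted p = 0.0438) and that on Nbr1 lower, with -0.40 ± 0.10 (adjusted p = 0.029), where 2.67% of all genes were called. The same difference was 0.59 ± 0.18 for Ctsd, 0.89 ± 0.30 for Gaa and 0.45 ± 0.16 for Psap, with adjusted p of 0.0698, 0.097 and 0.101. These values include the striatal ones, which follow the GC slope of the libraries described below. With the GC and length slopes of both tissues as covariates, Map1lc3a had 0.47 ± 0.09 (adjusted p = 0.00954) and Nbr1 -0.25 ± 0.07 (adjusted p = 0.0634), so the value of Map1lc3a was less than it was without the slopes and Nbr1 was not called, where 1.48% of all genes were called. Against cortex, tibialis and heart 0 members were called, with 4, 6 and 7 at an unadjusted p under 0.05, where 1.11%, 0.245% and 0.554% of all genes were called. With the slopes, 3 members were called against cortex, namely Map1lc3a with 0.40 ± 0.08, Nbr1 with -0.25 ± 0.06 and Ctsb with -0.23 ± 0.06, where 2.31% of all genes were called. Another 3 were called against tibialis, namely Ctsd with 0.45 ± 0.08, Map1lc3a with 0.41 ± 0.09 and Psap with 0.29 ± 0.06, where 1% of all genes were called. Against heart 0 were called, with 7 at an unadjusted p under 0.05, where 0.626% were called. A difference between liver and cortex or tibialis was thus called for some members with the slopes and for 0 without them. The shares of all genes given here are of those called, not of those at an unadjusted p under 0.05.

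The start regions of the members were searched for the letters CACGTG, the E-box core, and TCACGTG, the longer form bound by TFEB and its relatives. Lysosomal genes are known for such sites, and the search was made with the rise of Ctsd and Gaa already known. RefSeq start regions on GRCm38.p6 were available as 36 regions for 30 members, Map1lc3a not among them, and the 250 bases before each start were searched. CACGTG, which reads the same on both strands, was present in 27.8% of the 36 regions and in 6.02% of all 32851 regions. TCACGTG was found on either strand in 19.4% of the 36 and 3.13% of all, and every such match contains the shorter one. It was present in Atg7, Ctsa, Ctsd, Gaa, Glb1, Lamp1 and Mcoln1, of which only Ctsd and Gaa were called in liver at 100 mg/kg against vehicle. Of the members called in liver, Ctsd and Gaa hold the match and Psap and Nbr1 do not, and the 4 windows show it in Ctsd and Gaa and in Mcoln1 and Lamp1, which were not called. Each is written from 5′ to 3′ on the gene's strand, with TCACGTG or its complement CACGTGA in capitals.
Ctsd, chr7:142387893-142387952, minus strand, 125 to 66 bases before the start: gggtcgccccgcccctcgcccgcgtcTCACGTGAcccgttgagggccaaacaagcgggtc
Gaa, chr11:119267796-119267855, plus strand, 167 to 108 bases before the start: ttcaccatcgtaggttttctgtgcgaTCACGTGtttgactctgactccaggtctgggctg
Mcoln1, chr8:3500434-3500493, plus strand, 85 to 26 bases before the start: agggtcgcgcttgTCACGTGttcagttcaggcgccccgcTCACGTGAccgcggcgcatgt
Lamp1, chr8:13159097-13159156, plus strand, 64 to 5 bases before the start: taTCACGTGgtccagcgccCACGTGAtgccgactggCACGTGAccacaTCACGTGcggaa
Lamp1 holds 4 copies of CACGTG in its 250 bases, Mcoln1 and Ctsd 2 each and Gaa 1, with the second copy of Ctsd outside the 60 bases shown. The log2 fold changes of Lamp1 and Mcoln1 in liver at 100 mg/kg were -0.04 ± 0.05 and -0.14 ± 0.07. These matches are a description of the letters and were not tested.

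In striatum, the brain region most affected in Huntington's disease, no member passed the test in any comparison of arms. Between Q175 vehicle and WT vehicle 0 of 35 members were called, where 5.76% of all genes were called. At an unadjusted p under 0.05 there were 7 members higher and 2 lower in Q175, 25.7% of the list, where 21.5% of all genes were past that limit, and DESeq2 called 1 member. The smallest p was that of Ulk1, the autophagy-initiating kinase gene, at 25.1, 27.8 and 35.4 CPM in Q175 vehicle striata against 17.8, 22.6 and 29.2 CPM in WT striata (log2 fold change 0.32 ± 0.10, adjusted p = 0.0582). Larger differences had larger errors. Gaa was at 39.5, 93.4 and 174.6 CPM in Q175 vehicle striata against 36.9, 59.3 and 93.9 CPM in WT striata, which is 0.64 ± 0.29 (adjusted p = 0.197), and Map1lc3a had 0.55 ± 0.26 (adjusted p = 0.21). Of the 8 Q175 vehicle striata 4 were above the WT range for Gaa and 3 for Map1lc3a, and 0 were below it for either gene, so the groups overlapped.

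Dosing was not followed by a call in striatum. At 30 mg/kg against vehicle 0 members were called and DESeq2 called 0, where 0% of all genes were called. At an unadjusted p under 0.05 there were 4 members, 11.4% of the list and all lower, where 16.7% of all genes were past that limit. At 100 mg/kg against vehicle 0 were called and DESeq2 called 0, where again 0% of all genes were called. Here 9 members, 25.7% of the list and all lower, had an unadjusted p under 0.05, where 24.6% of all genes did. Map1lc3a had the smallest p at 100 mg/kg, with 12.1, 17.3 and 35.6 CPM at that dose against 17.9, 29.1 and 56 CPM in Q175 vehicle striata (-0.70 ± 0.26, adjusted p = 0.199). Ulk1 had the smallest p at 30 mg/kg, with 20.7, 21.9 and 34.7 CPM against the vehicle values above (-0.25 ± 0.10, adjusted p = 0.288). Between the doses 0 members were called by either tool and 0 had an unadjusted p under 0.05, where 0% of all genes were called. Against WT, 0 members were called at 30 mg/kg and 0 at 100 mg/kg, with 4 each at an unadjusted p under 0.05, where 6.69% and 4.94% of all genes were called and 18.4% and 16.8% had such a p. DESeq2 called 1 member at 30 mg/kg and 0 at 100 mg/kg.

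The striatal spread of the members followed a property of the libraries. Within arm and sex, the first axis of the variation between striatal libraries held 44.3% of it, and the loading of a gene on that axis correlated with the GC content of its longest transcript (r = 0.782 across genes, which are not independent). The slope of each library's log2 CPM on transcript GC content, given here as log2 per 10 percentage points, ran from -0.616 to 0.583 over the 32 striata, and 20 of the 35 members had a correlation above 0.8 in size with it once arm and sex means were removed. Psap, Map1lc3a and Gaa, whose transcripts have GC contents of 54.7%, 63.1% and 59.5%, had Pearson's r of 0.986, 0.981 and 0.972 with the slope (n = 32 libraries), and Lamp2, with a GC content of 38.7%, had -0.92. Spearman's rho was 0.973, 0.985, 0.97 and -0.953 for the same genes. The permutation p was 1e-05 for each, the smallest that 100000 resamples can give, and 4e-05 after Benjamini-Hochberg adjustment over the 350 relations of 35 members, 5 tissues and 2 slopes. The slope was fitted over all genes of the same library, the members included. A gene of high or low GC content is thus bound to it in part, and these p-values are a description only. Without the 2 striata farthest from the median slope r was 0.983, 0.98, 0.964 and -0.91. The members' highest and lowest pairs were Psap with Gaa, at r = 0.985, and Tfe3 with Lamp2, at -0.933. The median slope of Q175 striata was 0.213 with vehicle, -0.157 with the lower and -0.187 with the higher dose, and that of WT striata 0.0211, with overlapping ranges.

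**Figure D3:**
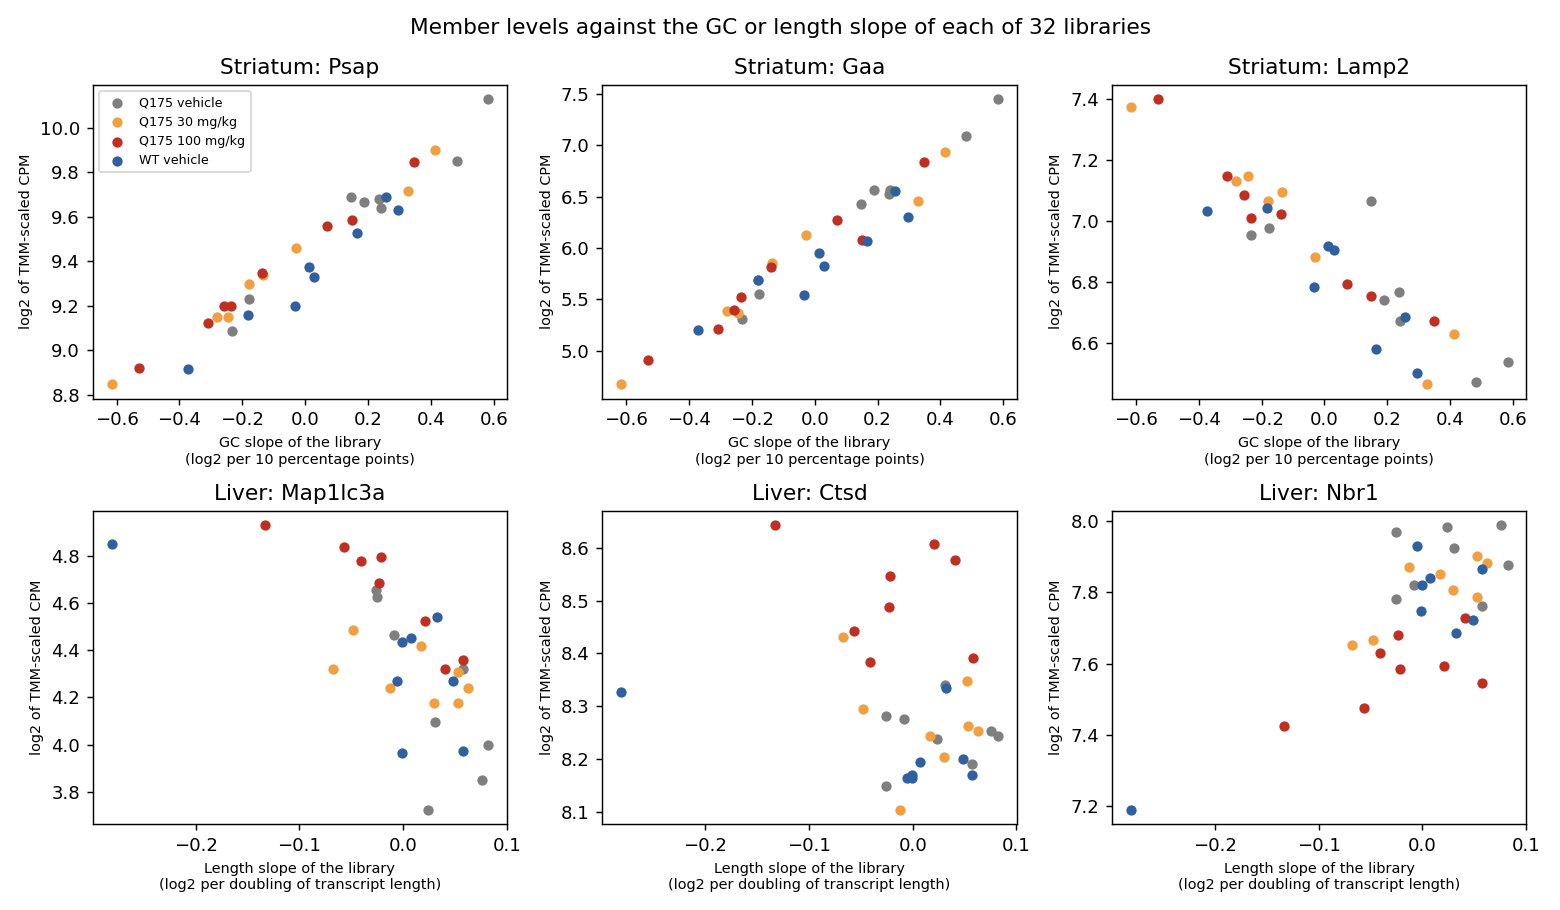
Log2 of TMM-scaled CPM against each library's slope on transcript GC content or on transcript length, for members in striatum (upper panels) and in liver (lower panels), 32 libraries each, coloured by arm. In striatum Psap and Gaa rise and Lamp2 falls along the GC slope in all 4 arms, with r of 0.986, 0.972 and -0.92 once arm and sex means are removed.

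The same slope was wide in cortex and tibialis, where 22 and 18 members had a correlation above 0.8 in size with it, and narrow in heart and liver, where 0 members did. The GC slope spanned 1.2 in striatum, 1.24 in cortex and 1.6 in tibialis, against 0.163 in heart and 0.225 in liver. In heart and liver the first axis instead followed transcript length, with r of -0.988 and -0.987 to the slope on log2 length. In liver, Map1lc3a had Pearson's r of -0.786 and Spearman's rho of -0.696 with the length slope (n = 32 libraries, permutation p of 1e-05 for both, adjusted 4e-05 over the same 350). Nbr1 had r of 0.758 and rho of 0.492 (permutation p of 5e-05 and 0.00446, adjusted 0.000168 and 0.012). The length slope too was fitted over all genes of the same library, so these p-values are a description only. Without the 2 livers farthest from the median slope r was -0.642 for Map1lc3a and 0.334 for Nbr1, so the relation of Nbr1 rested largely on those livers. The median length slope was -0.0223 at 100 mg/kg and 0.0273 in vehicle livers.

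The tests were repeated with both slopes of each library as covariates, a choice made after the data were seen. The slopes come from the same expression values, and their medians differed between arms. As covariates they can take up or add differences between arms, and how far they did so was not tested. In striatum, Q175 vehicle against WT vehicle then had 7 members higher and 1 lower, where 11.6% of all genes were higher and 8.51% lower. Ulk1 had 0.23 ± 0.06 (adjusted p = 0.00324), Gaa 0.22 ± 0.07 (adjusted p = 0.02), Map1lc3a 0.17 ± 0.05, Sqstm1 0.13 ± 0.03, Lamp2 0.12 ± 0.04, Psap 0.11 ± 0.03 and Ctsl 0.11 ± 0.03, and Tpp1 was lower, with -0.09 ± 0.03. Without the slopes the value of Lamp2 was -0.03 ± 0.12, so its sign depended on them. The members called included hydrolases, a cathepsin, a membrane protein, a receptor, an ATG8 gene and the initiating kinase. Over both directions together, the share of the list called was near that of all genes. These roles thus describe the genes called and are no result about the list. Neither transcription factor gene was called, with Tfeb at 0.12 ± 0.17.

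**Figure D4:**
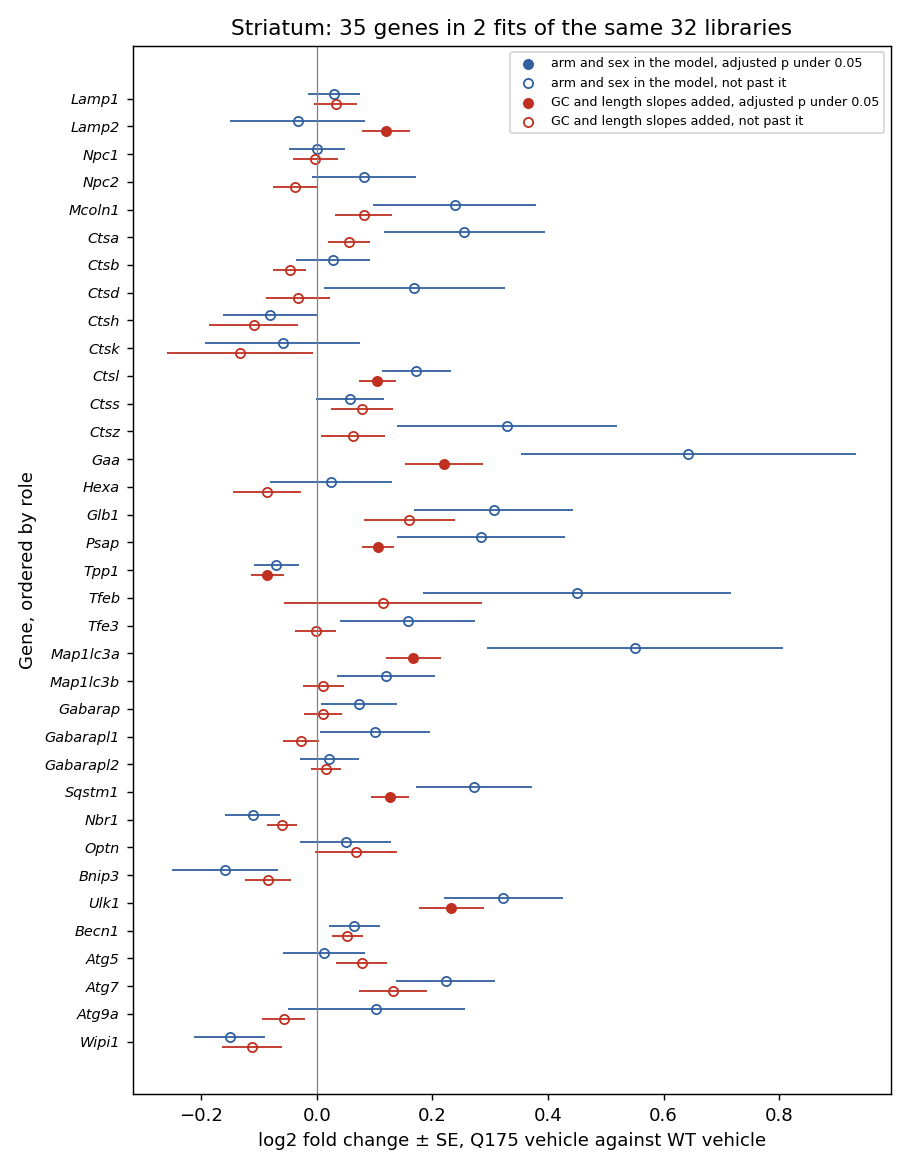
Log2 fold change of each member, Q175 vehicle over WT vehicle, in striatum with its SE (bars), without and with the GC and length slopes as covariates. The errors shrink most for Gaa, Map1lc3a and Psap, and 8 members pass an adjusted p of 0.05 with the slopes where 0 pass without them. With the slopes, the share of the list called in either direction was near that of all genes.

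With the slopes as covariates, 8 members were higher and 1 lower at 30 mg/kg against WT, where 13.5% of all genes were higher and 10.1% lower, and 7 were higher and 0 lower at 100 mg/kg, where 11.0% were higher and 8.51% lower. Both comparisons use the WT striata that the genotype comparison uses. In both, the share of the list called in either direction was near that of all genes. Psap had 0.14 ± 0.03 at 30 mg/kg and 0.15 ± 0.03 at 100 mg/kg, and Sqstm1 0.12 ± 0.03 and 0.15 ± 0.03. Ctsl had 0.13 ± 0.03 and 0.15 ± 0.03. The values of these 3 genes in Q175 vehicle striata were of similar size. Without the slopes Psap had 0.0104 ± 0.146 at 30 mg/kg and -0.00559 ± 0.146 at 100 mg/kg, and Gaa and Map1lc3a, higher at 30 mg/kg with the slopes (0.20 and 0.161), had -0.0142 ± 0.29 and -0.00174 ± 0.256, so these signs depended on the slopes. Dosed against vehicle striata still gave 0 calls at both doses, with 2 members each at an unadjusted p under 0.05. In liver, the 5 members called at 100 mg/kg against vehicle were also called with the slopes, together with Ctsb at -0.22 ± 0.06 (adjusted p = 0.0234), where 6.04% of all genes were called. Map1lc3a joined Ctsd in the difference between the doses in liver, with 0.30 ± 0.06 (adjusted p = 0.0126), where 1.19% of all genes were called.

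Cortex gave no call either. Q175 vehicle against WT vehicle had 0 members called and 1 with an unadjusted p under 0.05, where 0.0341% of all genes were called. That member was Tpp1, at 65, 71.6 and 75 CPM in Q175 vehicle cortex and 70.5, 74.8 and 86.2 CPM in WT cortex (-0.11 ± 0.05, adjusted p = 1). At 30 mg/kg against vehicle 0 were called and 6 had an unadjusted p under 0.05, where 0.318% of all genes were called and 16.1% had such a p, and at 100 mg/kg against vehicle 0 were called and 0 had an unadjusted p under 0.05, where 0% of all genes were called. Optn had the smallest p at 30 mg/kg, with 16.8, 18.3 and 33.8 CPM against 12.7, 16.3 and 18.4 CPM in vehicle cortex (0.32 ± 0.11, adjusted p = 0.296). Its highest 2 values at 30 mg/kg were those of the 2 cortex libraries over 1% of muscle markers, and Optn is abundant in tibialis, as given above. The part of muscle RNA in this value was not tested.

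At 100 mg/kg, Map1lc3a had the smallest p in cortex, with 16.3, 28.4 and 40 CPM against 19, 32.9 and 141 CPM in vehicle cortex (-0.67 ± 0.38, adjusted p = 0.811). The highest vehicle value stood alone. Between the doses 0 members were called in cortex but 20 had an unadjusted p under 0.05, 19 of them lower at 100 mg/kg, where 0.693% of all genes were called and 45.8% had an unadjusted p under 0.05. DESeq2 called 14 members there, 40% of the list and all lower, where it called 18.4% of all genes lower. The 100 mg/kg cortices had a median GC slope of -0.188 and the 30 mg/kg cortices one of 0.291, and with the slopes as covariates 0 members were called and 1 had an unadjusted p under 0.05. Against WT, 0 members were called at 30 mg/kg and 2 had an unadjusted p under 0.05 (DESeq2 called 1), where 0.688% of all genes were called, and 0 were called at 100 mg/kg with 1 at an unadjusted p under 0.05 (DESeq2 called 0), where 0.0455% were called. With the slopes, Optn was higher at 30 mg/kg against WT (0.40 ± 0.11, adjusted p = 0.0434), where 3.29% of all genes were called. That arm holds the 2 cortices over 1% of muscle markers, and without these libraries and without the slopes Optn had 0.232 (adjusted p = 0.681). Ctss was higher at 100 mg/kg with the slopes (0.14 ± 0.04, adjusted p = 0.0491), where 2.26% were called. DESeq2 called 0 members in cortex between Q175 vehicle and WT vehicle and at either dose against vehicle.

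In tibialis 0 members were called in each of the 6 comparisons of arms, where 0% of all genes were called in each. Ctsl, the broad cysteine protease, had the smallest p between Q175 vehicle and WT vehicle, at 106, 120.0 and 151 CPM in Q175 vehicle muscle and 80.8, 89.8 and 124 CPM in WT muscle. Its log2 fold change was 0.37 ± 0.08 with an unadjusted p of 0.000121 and an adjusted p of 0.162. Of the 8 WT muscles 7 lay below the whole Q175 range, and the WT library at 124 CPM did not. It was the only member with an unadjusted p under 0.05 in that comparison, and DESeq2 called 1 member. Ulk1 at 100 mg/kg had 24, 29.9 and 41.8 CPM against 23.6, 49.7 and 56 CPM in vehicle muscle (-0.48 ± 0.18, adjusted p = 0.952), and 4 members had an unadjusted p under 0.05, all lower, where 5.15% of all genes had one. Optn at 30 mg/kg had -0.18 ± 0.13 (adjusted p = 1), and 0 members had an unadjusted p under 0.05. Between the doses, and at 30 and 100 mg/kg against WT, 1, 2 and 6 members had an unadjusted p under 0.05, where 2.84%, 8.61% and 4.4% of all genes did, and DESeq2 called 0 in these and in both doses against vehicle.

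In heart 0 members were called in the comparisons of arms. Of all genes, 0.00626% were called between Q175 vehicle and WT vehicle, 0.00626% at 30 mg/kg against vehicle, 0.00626% at 100 mg/kg against vehicle, 0% between the doses, 0.00626% at 30 mg/kg against WT and 0.0188% at 100 mg/kg against WT. Members with an unadjusted p under 0.05 numbered 3, 4, 2, 8, 2 and 9 in the same order, where 11.2%, 8.11%, 10.5%, 12.8%, 2.4% and 14.1% of all genes had one, and DESeq2 called 0 throughout. Ctss was at 10.3, 13.2 and 17.7 CPM at 30 mg/kg against 12.3, 15.4 and 57.3 CPM in vehicle hearts (-0.76 ± 0.27, adjusted p = 0.401). The 3 highest vehicle hearts, all female, were at 57.3, 33.6 and 22.9 CPM, above every heart of the 30 mg/kg arm. The summed macrophage markers reached 442 CPM at 30 mg/kg and 933 CPM in vehicle hearts, with medians of 307 CPM at 30 mg/kg and 341 CPM in vehicle hearts, and their part in the Ctss values was not tested. Ctsz was at 20, 24 and 39.8 CPM in Q175 vehicle hearts against 17.4, 19.9 and 24.3 CPM in WT hearts (0.38 ± 0.13, adjusted p = 0.267). Tfeb at 100 mg/kg had 0.20 ± 0.09 (adjusted p = 0.437).

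The genotype effect on the members was set against that in other tissues and compared between the sexes. Taken as striatum minus cortex, tibialis, heart or liver it gave 0 member calls each, with 1, 0, 6 and 5 members at an unadjusted p under 0.05, where 0.148%, 0.0581%, 0.806% and 0.544% of all genes were called. With the slopes of both tissues as covariates, Gaa, Glb1 and Psap had a higher effect in striatum than in heart, by 0.38 ± 0.08, 0.26 ± 0.08 and 0.22 ± 0.05 (limma adjusted p = 0.00728, 0.0484 and 0.00565), where 7.52% of all genes were called. Against cortex, tibialis and liver 0 were called with the slopes, with 9, 5 and 3 at an unadjusted p under 0.05, where 4.41%, 1.42% and 1.23% of all genes were called. Taken as females minus males it gave 0 member calls in striatum, where 0.00580% of all genes were called, and 0 in cortex, tibialis, heart and liver, where 0%, 0%, 0% and 0% were called, with 1, 7, 0, 3 and 1 members at an unadjusted p under 0.05. The 7 cortex members were 20% of the list. For the comparisons of this paragraph the share of all genes at an unadjusted p under 0.05 is not given.

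Females and males were compared over 16 libraries each. In liver 5 members were higher in females and 7 lower, 14.3% and 20% of the list, where 17.0% of all genes were higher and 15.7% lower. Ctsb, a cysteine protease, was at 614, 756 and 920.4 CPM in 16 female livers and 522, 583 and 677 CPM in 16 male livers (log2 difference 0.34 ± 0.05, adjusted p = 1.39e-06). Npc2, the soluble cholesterol carrier, was at 74.2, 79.6 and 113 CPM in females and 58, 64.4 and 78.8 CPM in males (0.37 ± 0.06, adjusted p = 3.96e-05). Ctss had 0.59 ± 0.16 (adjusted p = 0.0059). Of the 16 macrophage markers 12 were higher in female livers and 0 lower, and their part in the Ctss difference was not tested. On the lower side, Gabarapl2 was at 40.4, 44.4 and 58.2 CPM in females and 49.8, 55.3 and 61.8 CPM in males (-0.28 ± 0.04, adjusted p = 1.67e-05). Wipi1 had -0.46 ± 0.10 and Map1lc3b -0.21 ± 0.07. Psap and Hexa were also higher in females, and Becn1, Lamp1, Mcoln1 and Tpp1 lower, with values of -0.19 to -0.14 for those 4.

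In tibialis, Npc1, the membrane cholesterol exporter, was at 23.1, 33.5 and 46.1 CPM in females and 30.5, 56.3 and 81.5 CPM in males (-0.76 ± 0.09, adjusted p = 1.77e-06). Ctsb was higher in females by 0.20 ± 0.05 (adjusted p = 0.0427), and these 2 were the members called, where 2.12% of all genes were called. Ctsb lost its call with the form of the column name, without the filter and on FPKM (adjusted p = 0.0781, 0.134 and 0.268). This comparison holds tibialis libraries with transcripts of the other sex. They stood at 45.8% in male 1 of the 100 mg/kg arm, 15% in WT female 3 and 22.6% in WT male 4. Without libraries with transcripts of the other sex more members were called, as given below. In heart, Optn was the member called, at 51.9, 67.5 and 78.8 CPM in females and 63.5, 76.8 and 84.6 CPM in males (-0.16 ± 0.05, adjusted p = 0.0361), where 5.31% of all genes were called. It lost its call without the filter (adjusted p = 0.0775), with the form of the column name (-0.132, adjusted p = 0.132) and on FPKM (-0.0297, adjusted p = 0.601). In striatum and cortex 0 members were called by edgeR or DESeq2, with 2 and 0 at an unadjusted p under 0.05, where 0.221% and 0.0739% of all genes were called.

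A further 108 genes of the pathway, in 5 lists, were tested in the same fits. In liver at 100 mg/kg against vehicle 2 of 108 rose and 2 fell, 3.7% of them, where 4.11% of all genes rose and 2.74% fell. Atp6v0a1, a subunit of the proton pump that acidifies lysosomes, was at 40.5, 55.1 and 60.9 CPM at 100 mg/kg against 36.5, 43.1 and 52.3 CPM in vehicle livers (0.29 ± 0.08, adjusted p = 0.023), the 1 of 18 pump genes called. Atg12, which is joined to ATG5 for ATG8 lipidation, was at 26.2, 29.3 and 34.4 CPM against 21.8, 24.9 and 27.8 CPM (0.22 ± 0.06, adjusted p = 0.0197), the 1 of 25 other core genes called. Galns, a lysosomal sulfatase, fell by 0.51 on the log2 scale (-0.51 ± 0.13), the 1 of 35 other lysosomal genes called. It was at 3.82, 5.06 and 7.05 CPM at 100 mg/kg against 5.58, 6.45 and 14.9 CPM in vehicle livers. How far this fall rests on the highest vehicle liver was not tested. Retreg1, a receptor for autophagy of the endoplasmic reticulum, fell by 0.55 (-0.55 ± 0.15), the 1 of 10 other receptors called. It was at 72.8, 97.4 and 149 CPM against 107, 154 and 189.8 CPM. None of the 20 genes of mTORC1 and TFEB control was called. As in the 35 members, most genes of each role were not called and those that were moved in both directions.

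In striatum, Q175 vehicle against WT vehicle had 4 of 107 of these genes higher and 2 lower, 5.61% of them, which is near the 5.76% of all genes. Galns was at 2.23, 3.16 and 5.04 CPM in Q175 vehicle striata and 1.37, 1.85 and 2.46 CPM in WT striata (0.82 ± 0.17, adjusted p = 0.00312). Hgsnat, a lysosomal acetyltransferase, and the pump genes Atp6ap1 and Atp6v0c were higher by 0.22 ± 0.06, 0.17 ± 0.05 and 0.40 ± 0.11. Vmp1, whose product acts in forming the autophagic membrane, was at 105, 116 and 151 CPM in Q175 vehicle striata against 134, 155 and 169 CPM in WT striata (-0.39 ± 0.08, adjusted p = 0.00248). Rragd, a GTPase that brings mTORC1 to lysosomes, had -0.37 ± 0.09 (adjusted p = 0.013). At 30 mg/kg against WT 5 were higher and 1 lower, and at 100 mg/kg 2 were higher and 1 lower, or 5.61% and 2.8% of them, where 6.69% and 4.94% of all genes were called. With both slopes as covariates the genotype comparison had 22 higher and 4 lower, or 24.3% of the 107 genes, where 11.6% of all genes were higher and 8.51% lower.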

How the data were processed

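The deposited tables hold 1 estimated count and 1 FPKM value per gene and library for 43432 genes and 160 libraries. The submitters' processing notes list CASAVA 1.8.2. Which aligner, genome build, annotation and strand setting were used was not given in the sources used here. The estimated counts that the authors deposited were rounded to whole numbers. The authors' FPKM values were used for levels between genes and, as log2(FPKM + 1), in 1 alternative. Each tissue was fitted in R 4.3.3 with edgeR 4.0.16 (filterByExpr on the 4 arms, TMM, robust quasi-likelihood fits of arm and sex over 32 libraries), with Benjamini-Hochberg adjustment over all genes tested and SEs from the F statistics. DESeq2 1.42.0 and limma 3.58.1 gave alternatives, and limma the differences between tissues (prior count 2). Another alternative had as a covariate whether a library's deposited column name ended in a lane and index or in a number. The procedure was tested on simulated data. The simulated libraries carried no GC or length slope, so that test does not cover the spread that follows these slopes. Totals of 29.8 M to 44.9 M set counting error only, since reads carrying no molecular identifier are not separate molecules. Replicate numbers did not pair samples.

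The 35 members and the lists were chosen with earlier results of these data known. Members were named where called, up to 4 in a direction for genotype and dose against vehicle, or otherwise by smallest p, and up to 3 in a direction elsewhere. Further members were named after their values were seen. Where members at an unadjusted p under 0.05 are counted without the share of all genes at that limit, the count is a description only. GC content and length came from the longest GENCODE vM21 transcript of each gene, matched for 35 members.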

Additional observations from a re-analysis of the deposited data

Results flagged for a closer look

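In groups of 8 libraries, a value was singled out where its gap to the nearest library as a share of the group's range exceeded Dixon's 95% critical value. Of 72 groups tested 11 had such a value, and chance alone gives about 1 in 20. In cortex, Optn was at 33.8 CPM in female 4 of the 30 mg/kg arm, the library with the most muscle markers, with the next library at 22.4, and at 20.1 in female 4 of the 100 mg/kg arm, with the next at 18. Map1lc3a was at 141 CPM in male 3 of the cortex vehicle group, with the next at 49.5. In tibialis, Ctsl was at 151 CPM in vehicle female 3 and Ulk1 at 72.3 CPM in WT female 4. In heart, Ctsz was at 38.8 CPM in male 4 of the 100 mg/kg arm, Ctss at 22.9 CPM in WT male 1 and Tfeb at 10.9 CPM in WT female 3, the last a low value. In liver, the values that stood out were all low, with Tfeb at 3.85 CPM in female 4 of the 100 mg/kg arm, Gaa at 75.6 CPM in male 4 of the 30 mg/kg arm and Nbr1 at 146 CPM in WT female 2.

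The 100 mg/kg effect differed between liver and striatum for Nbr1, by a log2 difference of -0.40, and for Map1lc3a, by 1.09 (limma, adjusted p = 0.029 and 0.0438). With the GC and length slopes of both tissues as covariates these were -0.25 (adjusted p = 0.0634, no longer called) and 0.47 (adjusted p = 0.00954).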

How the results depend on the processing

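Of the 51 comparisons, 36 kept their count of called members within 1.5 times under every alternative run. In liver at 100 mg/kg against vehicle, 5 members became 3 without the low-count filter and 3 without the livers over 1% of another tissue, and 3 to 6 with 1 library left out. Between the doses in liver, 1 became 3 with DESeq2, 2 with both slopes, 0 without the filter and 0 without those livers. In striatum, 0 became 1 with DESeq2, 1 with a replicate block, 4 with the GC slope and 8 with both slopes for genotype, 1 with DESeq2, 8 and 9 with the slopes at 30 mg/kg against WT, and 6 and 7 with the slopes at 100 mg/kg against WT. In cortex, 0 became 14 with DESeq2 between the doses, 1 with DESeq2 and 1 with both slopes at 30 mg/kg against WT, and 1 with both slopes at 100 mg/kg against WT. In tibialis, 0 became 1 with DESeq2 for genotype, and the 2 sex calls became 6 with both slopes, 4 without libraries with transcripts of the other sex, and 1 each with the column name form, FPKM and no filter. In heart, the 1 sex call became 2 with both slopes, 8 with FPKM and 0 each with the column name form and no filter. With both slopes, the 100 mg/kg effect in liver minus that in striatum had 1 call in place of 2, minus cortex 3 and minus tibialis 3 in place of 0, and the genotype effect in striatum minus heart 3 in place of 0. These causes were not tested. Where no share of all genes stands beside a count of members called under an alternative, here or above, the count describes the processing only. Replicate numbers showed no pairing (mean r of same-numbered libraries -0.0574 to 0.0328), and the replicate block changed no other count by over 1.5 times.

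Of the named members, these log2 values changed sign. Map1lc3a in cortex at 100 mg/kg against vehicle became 0.013 with both slopes. In striatum for genotype, Tpp1 became 0.00417 with FPKM, and Lamp2 0.12 with both slopes, 0.0976 with the GC slope and 0.0762 with FPKM. At 30 mg/kg against WT, Psap became -0.0103 with FPKM, Gaa 0.20 and 0.165 with both slopes and the GC slope, and Map1lc3a 0.161 and 0.19 with these, 0.00307 without the filter, 0.00725 with the replicate block and 0.00394 without 3 striata. At 100 mg/kg against WT, Psap became 0.147, 0.137 and 0.0433 with both slopes, the GC slope and without those striata.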
